A study of Mus musculus with 6 samples.

Results

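The 36 genes described here encode chemokines and the receptors that read them: 24 ligands, of which 14 belong to the CC and 10 to the CXC family, and 12 receptors. They were taken from a list of 36 symbols, each of which had at least 1 probe set naming that gene alone, out of 19752 genes that had such a probe set. Where a gene had several such probe sets, the one with the highest mean over the 6 arrays stood for it. RNA came from aortas of mice aged 20 weeks on a C57BL/6 background. The first group, DKO (apoe-/- adora1-/-, n = 3 arrays), lacked both the apolipoprotein E gene and the gene of the A1-type adenosine receptor. The second group, ApoE-KO (apoe-/-, n = 3 arrays), lacked apolipoprotein E alone, so the loss of Apoe was shared by all 6 arrays. No array of a wild-type or Adora1-only mouse was among them. Whether an array held 1 aorta or several was not stated in the labels. Apoe, the gene missing in both groups, read 9.39, 9.63 and 9.72 in the DKO arrays and 9.47, 9.64 and 10.04 in the ApoE-KO arrays, with overlapping groups, and Adora1 was not analysed here, so the labels were not checked by it. Each value is a log2 intensity, so a difference of 1 is a doubling, and levels of different probe sets are not compared with each other because probes differ in brightness.

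Chemokines are small secreted proteins that guide leukocytes along gradients, and their receptors couple to inhibitory G proteins on the leukocyte surface. CC chemokines draw mainly monocytes, T cells and eosinophils. Some CXC chemokines draw neutrophils, those induced by interferon draw activated T cells, and others draw B cells or progenitor cells. In the arteries of Apoe-deficient mice, ligands of Ccr2, together with Cx3cr1, are known for bringing monocytes into plaques. Adenosine acting at its receptors on leukocytes and vessel cells is known to modulate inflammatory cell recruitment. The comparison asks how these genes differ in the aorta when the adenosine receptor is missing in addition to Apoe.

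No chemokine or receptor gene differed between DKO and ApoE-KO aortas after adjustment over all 25254 probe sets, and the smallest adjusted p of the 36 was 0.468, for Ccl7 (limma, unpaired, two-sided). With the replicate number as a block, the smallest was 0.0653, again for Ccl7, and 0 of the 36 passed, against 0.174% of all probe sets (0.095% higher and 0.0792% lower in DKO). Without adjustment, 3 of the 36 had a p under 0.05 unpaired, where 5.62% of all probe sets did (2.94% higher and 2.68% lower in DKO), and all 3 were lower in DKO. With the block 10 did, where 16.2% of all probe sets did. Of those 10, 9 were lower in DKO, a call that took in 6.1% of all probe sets, and 1 was higher, a call that took in 10.1%. The arrays of DKO and ApoE-KO did not overlap in 7 genes, all lower in DKO, while 6.47% of all probe sets were separated in that direction and 5.55% in the other. These were the ligand genes Ccl2, Ccl6, Ccl7, Ccl9, Cxcl1 and Cxcl14 and the receptor gene Ccr8. P-values here measure the spread between these arrays, which may be technical where no label tells separate animals apart.

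More ligands were lower than higher in DKO, while the receptors were evenly divided. Of 24 ligands, 16 were lower and 8 higher in DKO, with a median difference of -0.07, where all probe sets had a median of -0.0024 and 50.7% were lower. Of 12 receptors, 6 were lower and 6 higher, with a median of -0.019. By replicate number the ligand medians were -0.37, -0.018 and 0.0064 for replicates 1, 2 and 3, so most of the shift came from replicate 1. There 23 of 24 ligands and 9 of 12 receptors were lower in DKO, against 12 and 4 in replicate 2 and 11 and 4 in replicate 3. Over all probe sets 50.1%, 52.4% and 45.5% were lower in these replicates. In 8 ligands and 2 receptors all 3 replicate numbers were lower, which held for 19.1% of all probe sets, and in 2 receptors all 3 were higher, which held for 21.2%.

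**Figure D1:**
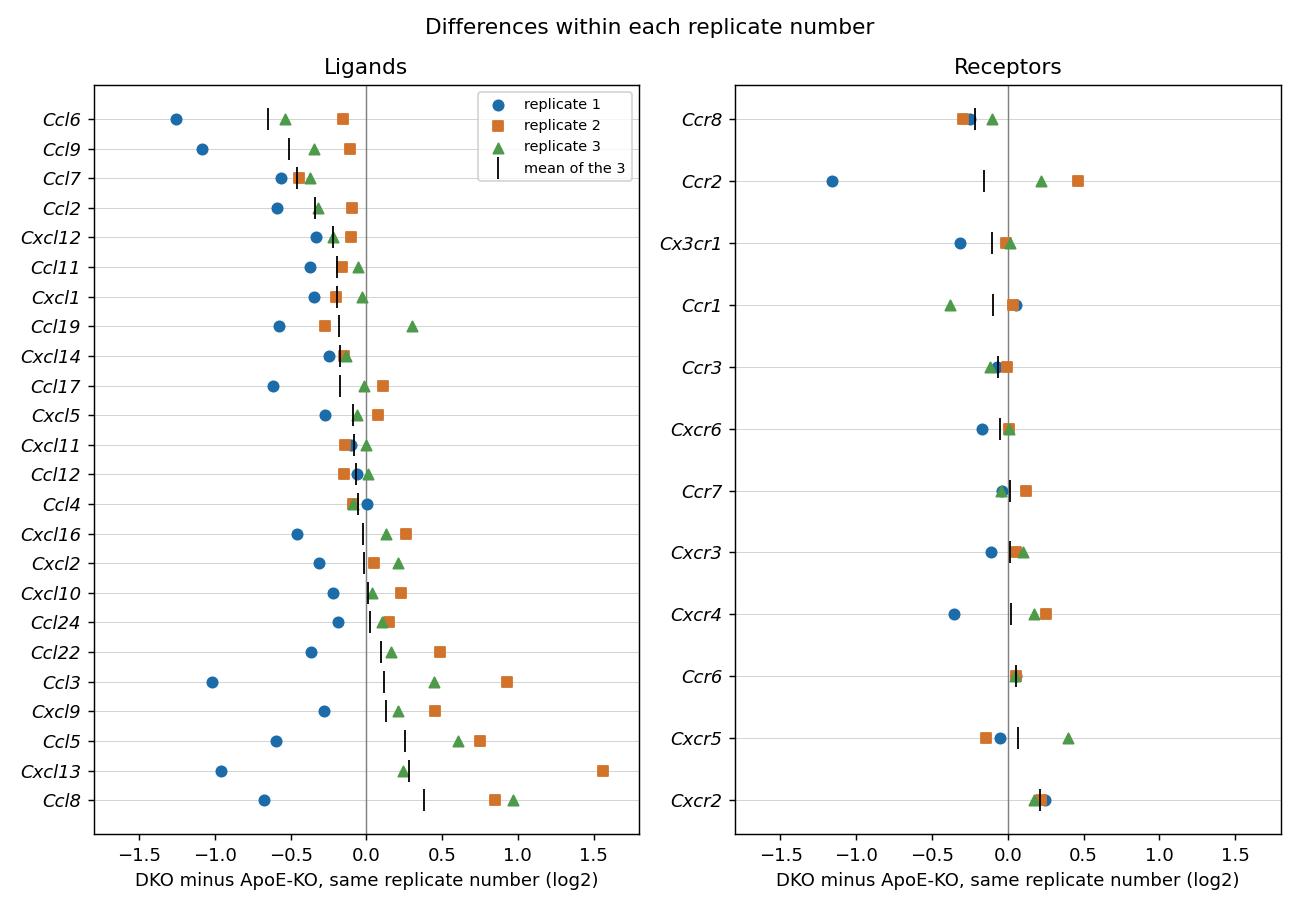
Difference in log2 intensity between the DKO and the ApoE-KO array of the same replicate number, for 24 ligands on the left and 12 receptors on the right, with the mean of the 3 as a bar; genes run from the lowest mean at the top to the highest at the bottom. In replicate 1, 32 of the 36 points lie below 0, against 16 in replicate 2 and 15 in replicate 3.

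One array was the lowest for most of these genes. DKO replicate 1 gave the lowest of the 6 values for 19 of 24 ligands and 7 of 12 receptors, where it was the lowest array for 19% of all probe sets. It gave the highest value for 0 of the 36, although it was the highest array for 24.2% of all probe sets. DKO replicate 2 gave the highest value for 8 ligands and 1 receptor, against 11.6% of all probe sets, and ApoE-KO replicate 1 for 8 ligands and 2 receptors, against 20.5%. The standard deviation was larger in DKO than in ApoE-KO for 27 of the 36 genes, which held for 43.8% of all probe sets. Without DKO replicate 1 the ligand median was 0.0024 with 12 of 24 lower, and the receptor median was 0.067 with 3 of 12 lower.

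Among leukocyte lists, the marker means of macrophages, dendritic cells, T cells, neutrophils and mast cells were also lowest in that array, and those of B cells, NK cells and eosinophils were not. Of 14 monocyte and macrophage markers, 13 were lowest in DKO replicate 1 and 11 highest in DKO replicate 2. Their mean level was 8.64, 9.68 and 9.42 in the DKO arrays and 9.31, 9.43 and 9.30 in the ApoE-KO arrays, and their summed level ran from 120.9 to 135.5 in DKO and from 130.2 to 132.0 in ApoE-KO. Dendritic cell markers, with 5 of 8 lowest in DKO replicate 1, averaged 7.03, 7.41 and 7.27 in DKO and 7.44, 7.24 and 7.21 in ApoE-KO. That list includes Ccl22, which is also a ligand described here and was itself lowest in DKO replicate 1, so it is not separate from the chemokine genes. T cell markers, with 4 of 9 lowest in that array, averaged 6.95, 7.22 and 7.12 in DKO and 7.08, 7.12 and 7.05 in ApoE-KO. In DKO replicate 1 lay the lowest value of 4 of 8 neutrophil markers, 5 of 8 mast cell markers, 0 of 6 B cell markers, 1 of 5 NK cell markers and 1 of 4 eosinophil markers. The smooth muscle markers, which stand for the labelled tissue, ran from 12.82 to 13.07 in their mean over the 6 arrays and were lowest in DKO replicate 1 for 1 of 6. The low array was not confined to leukocyte lists. The means of fibroblasts, white adipocytes and lymphatic endothelium were also lowest in DKO replicate 1, at 12.10, 8.68 and 8.13. Those of platelets, endothelium, mesothelium, lung epithelium and sympathetic nerve were not. The part of leukocyte content in the chemokine differences was not tested, and in whole tissue fewer cells of a type and less RNA per cell cannot be told apart.

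**Figure D2:**
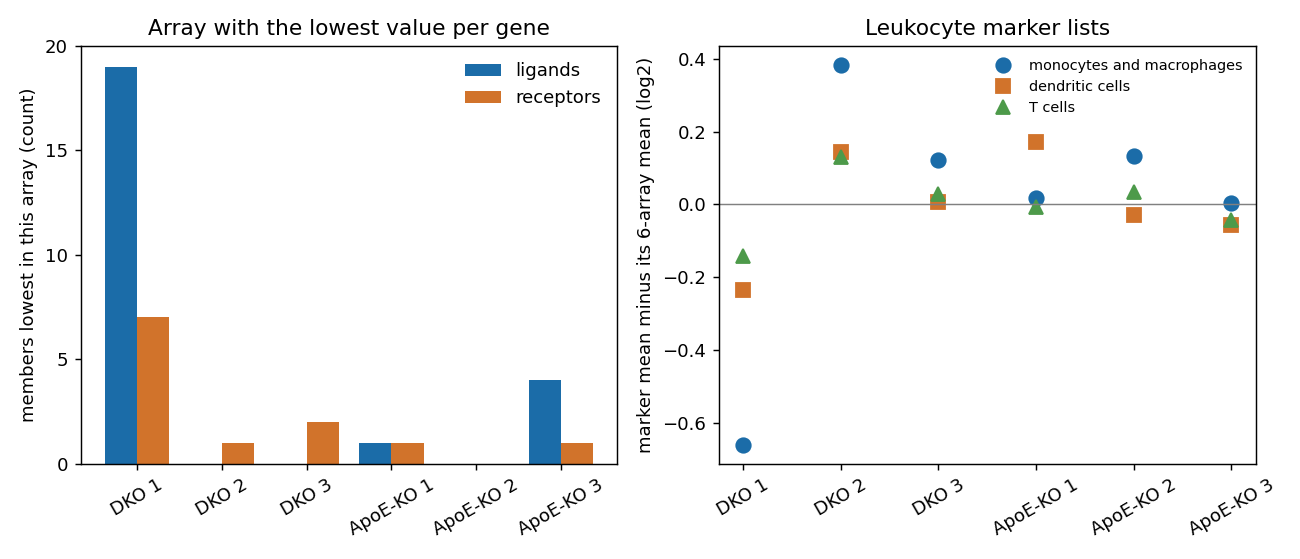
Left, the number of ligands and receptors whose lowest value of the 6 lay in each array; right, the mean log2 level of 3 leukocyte marker lists in each array minus the list's own mean over the 6 arrays. DKO replicate 1 holds the lowest value of 19 ligands and 7 receptors and is the lowest point of each marker list. The dendritic cell list includes Ccl22, which is also counted among the ligands on the left.

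The monocyte attractants Ccl2 and Ccl7 had the smallest unpaired p-values of the 24 ligands, and both were lower in DKO. Ccl7, a ligand of Ccr1 and Ccr2 that helps to mobilise monocytes, had 7.74, 7.84 and 7.89 in the DKO arrays, against 8.30, 8.28 and 8.26 in the ApoE-KO arrays. No DKO array reached an ApoE-KO array, and each group was tight. The difference was -0.46 (95% interval -0.63 to -0.28), or 0.728 times the ApoE-KO level, with an unadjusted p of 0.000417 and an adjusted p of 0.468 (limma). With the replicate block the adjusted p was 0.0653, so the call was missed in both fits. Without the replicate 1 arrays the difference was -0.41. Ccl7 was lower in every replicate number, as were the means of 7 of the 17 marker lists. The differences by replicate number were -0.57, -0.50 and -0.53 for white adipocytes, -0.41, -0.62 and -0.29 for lymphatic endothelium and -0.22, -0.21 and -0.25 for mast cells. They were -0.11, -0.080 and -0.65 for lung epithelium, -0.13, -0.21 and -0.995 for sympathetic nerve, -0.11, -0.084 and -0.039 for eosinophils and -0.11, -0.026 and -0.045 for neutrophils. The means of 4 lists, B cells, platelets, smooth muscle and mesothelium, were higher in every replicate number, the last by 0.56, 1.06 and 0.48. The part of these cells in the ligands that were lower in every replicate number was not tested.

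Ccl2, the main monocyte chemoattractant and a ligand of Ccr2, had 7.76, 8.16 and 7.97 in DKO, against 8.35, 8.26 and 8.29 in ApoE-KO. The groups stayed apart, although DKO replicate 2 came close to the ApoE-KO arrays. The difference was -0.34 (95% interval -0.60 to -0.07; limma, unadjusted p = 0.0194, adjusted p = 0.861). By replicate number it was -0.59, -0.10 and -0.32.

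Ccl2 and Ccl7 lie next to each other on chromosome 11, followed without another protein-coding gene between them by Ccl11, Ccl12 and Ccl8, in the gene order of the RefSeq table of assembly GRCm38.p6. Ccl11, or eotaxin, which draws eosinophils through Ccr3, had 10.66, 11.49 and 11.28 in DKO, against 11.03, 11.64 and 11.33 in ApoE-KO. The groups overlapped, but each DKO array was below the ApoE-KO array of its number, by 0.37, 0.16 and 0.054 in size. The mean difference of -0.19 had an unadjusted p of 0.442 unpaired and 0.0296 with the block (limma, adjusted p = 0.935 and 0.256), and it was 0.048 without DKO replicate 1. Ccl12, the rodent relative of Ccl2, spanned only 5.79 to 5.98 over the 6 arrays.

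Ccl8, the last gene of that row, did not follow its neighbours. It had 6.62, 8.16 and 7.40 in DKO, against 7.30, 7.31 and 6.43 in ApoE-KO. DKO replicate 2 was the highest and ApoE-KO replicate 3 the lowest, and the groups overlapped. Its difference of 0.38 (95% interval -0.57 to 1.33; limma, adjusted p = 0.928) was the largest positive one among the 24 ligands, and was -0.0028 without DKO replicate 2. By replicate number it was -0.67, 0.85 and 0.97. In the mouse, Ccl8 is a ligand of Ccr8.

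Ccr2, the receptor through which Ccl2, Ccl7 and Ccl12 draw monocytes, had 5.83, 6.61 and 6.60 in DKO, against 6.99, 6.15 and 6.37 in ApoE-KO. Both the lowest and the highest value came from replicate 1, the lowest from DKO and the highest from ApoE-KO. The difference of -0.16 (95% interval -0.81 to 0.49; limma, adjusted p = 0.954) was smaller than the spread within either group. It was 0.10 without DKO replicate 1 and 0.084 without ApoE-KO replicate 1.

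A second row of CC ligand genes on chromosome 11 held the largest differences of all members and also some of the most scattered. In the same gene order Ccl5, Ccl9, Ccl6, Ccl3 and Ccl4 follow one another. Ccl6, a rodent ligand of Ccr1 made by macrophages and other myeloid cells, had 8.47, 9.72 and 9.52 in DKO, against 9.73, 9.87 and 10.06 in ApoE-KO. The groups were separated only narrowly, between DKO replicate 2 and ApoE-KO replicate 1, and DKO replicate 1 stood over 1 unit below every other array. The difference was -0.65 (95% interval -1.37 to 0.07), or 0.638 times the ApoE-KO level, with adjusted p = 0.862 unpaired and 0.181 with the block (limma). Without DKO replicate 1 it was -0.27.

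Ccl9, also a rodent ligand of Ccr1, had 8.43, 9.41 and 9.08 in DKO, against 9.52, 9.51 and 9.42 in ApoE-KO. The pattern was that of its neighbour Ccl6, with groups just apart and DKO replicate 1 far below the rest. The difference was -0.51 (95% interval -1.05 to 0.02; limma, adjusted p = 0.862), and -0.24 without DKO replicate 1. By replicate number Ccl6 stood at -1.26, -0.15 and -0.54 and Ccl9 at -1.08, -0.11 and -0.34. The macrophage marker mean stood at -0.68, 0.25 and 0.12 in those same numbers, and 1 of its 14 markers, Lyz1, was lower in every one, at -1.14, -0.096 and -1.12. The part of macrophage content in Ccl6 and Ccl9 was not tested.

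The other ligands of that row had both signs. Ccl5, which draws T cells and monocytes, had 7.74, 8.52 and 8.76 in DKO, against 8.33, 7.77 and 8.16 in ApoE-KO. The groups overlapped, with the lowest and the highest value both in DKO. Its difference was 0.25 (95% interval -0.38 to 0.89; limma, adjusted p = 0.929), with -0.59, 0.75 and 0.61 by replicate number. Ccl3, a macrophage inflammatory protein that also acts on Ccr1, was lower in replicate 1 by 1.02 in size and stood at 0.93 and 0.45 in the others. Ccl4, its close relative, spanned only 6.62 to 6.82.

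Replicates 2 and 3 alone, fitted with the block, gave another picture for these ligands, in a fit where 1.64% of all probe sets passed. In that fit of 4 arrays Ccl8 was higher in DKO by 0.91, Ccl5 by 0.68 and Ccl3 by 0.69 (limma, adjusted p = 0.00714, 0.0127 and 0.0384). They were the 3 members that passed. Without the block the same 4 arrays gave 0 passing probe sets, with adjusted p = 0.545 for Ccl8, 0.41 for Ccl5 and 0.535 for Ccl3 (limma), and 2276 probe sets with an unadjusted p under 0.05. The replicate number left out was the one in which all 3 were lower in DKO, at -0.67 for Ccl8, -0.59 for Ccl5 and -1.02 for Ccl3. Leaving it out favoured a higher result, so the p-values of this fit cannot show that these ligands were higher in DKO. With all 6 arrays and the block, their adjusted p was 0.573, 0.651 and 0.891 (limma). Ccl3 is named here after its value was seen. Macrophage markers were higher in DKO in these same replicates, as given above, and their part in the 3 ligands was not tested.

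The receptor Ccr1, which reads Ccl3, Ccl5, Ccl6, Ccl7 and Ccl9, lay between 5.65 and 6.03 over the 6 arrays, lowest in DKO replicate 3. Its difference was -0.10 (95% interval -0.35 to 0.16; limma, adjusted p = 0.933). The SD was larger in DKO than in ApoE-KO in 6 of these 6 genes, as in 27 of the 36 members and 43.8% of all probe sets. The low array was not shared, since the 5 ligands were lowest in DKO replicate 1.

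Promoters were read for the 7 genes whose groups did not overlap, and 5 had an entry in the RefSeq promoter table (build GRCm38.p6). The 250 bases before the start of each are shown, because these genes were lower together in DKO and a reader may want to set them side by side. Ccl6 lies at chr11:83593088-83593337, Ccl9 at chr11:83578637-83578886 and Cxcl14 at chr13:56296552-56296801, all on the minus strand. Cxcl1 lies at chr5:90890995-90891244 and Ccr8 at chr9:120091883-120092132, both on the plus strand. Each is written 5′ to 3′ along the gene, and capitals mark matches on either strand to the NF-kB consensus, to the AP-1 motif TGANTCA or to the interferon-stimulated response element.
Ccl6: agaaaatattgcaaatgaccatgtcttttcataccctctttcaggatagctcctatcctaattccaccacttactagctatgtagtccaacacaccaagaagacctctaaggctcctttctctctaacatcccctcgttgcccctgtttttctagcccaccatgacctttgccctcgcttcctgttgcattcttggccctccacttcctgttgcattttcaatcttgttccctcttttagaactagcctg
Ccl9: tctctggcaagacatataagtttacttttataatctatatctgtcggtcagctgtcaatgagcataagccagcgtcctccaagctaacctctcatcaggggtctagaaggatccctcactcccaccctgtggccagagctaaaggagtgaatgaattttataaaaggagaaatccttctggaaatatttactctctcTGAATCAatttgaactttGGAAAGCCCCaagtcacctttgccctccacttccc
Cxcl1: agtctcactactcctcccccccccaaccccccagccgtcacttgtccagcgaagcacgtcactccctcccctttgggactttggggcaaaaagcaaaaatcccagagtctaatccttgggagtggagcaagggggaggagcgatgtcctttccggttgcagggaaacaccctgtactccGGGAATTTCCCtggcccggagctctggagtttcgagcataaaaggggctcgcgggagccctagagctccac
Cxcl14: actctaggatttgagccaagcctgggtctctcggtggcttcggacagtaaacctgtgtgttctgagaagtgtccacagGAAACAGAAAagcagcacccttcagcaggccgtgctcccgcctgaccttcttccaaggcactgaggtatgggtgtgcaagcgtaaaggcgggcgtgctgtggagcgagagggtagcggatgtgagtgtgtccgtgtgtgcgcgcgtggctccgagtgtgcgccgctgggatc
Ccr8: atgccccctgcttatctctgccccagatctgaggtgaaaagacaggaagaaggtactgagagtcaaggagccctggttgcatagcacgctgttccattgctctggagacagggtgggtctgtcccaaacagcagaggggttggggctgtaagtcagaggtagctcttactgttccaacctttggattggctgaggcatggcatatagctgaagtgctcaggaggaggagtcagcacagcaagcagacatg
Cxcl1 holds a pair of overlapping NF-kB matches that begin 71 and 70 bases before the start, and Ccl9 holds an NF-kB match that begins 35 bases before it and an AP-1 match that begins 53 bases before it. Cxcl14 holds an interferon response element match that begins 172 bases before the start, and the windows of Ccl6 and Ccr8 hold none of the 3 motifs. Among all 27025 genes in the table, 7.01% hold the NF-kB consensus in this window, 6.87% the AP-1 motif and 3.04% the interferon response element. Of the 25 members with an entry, 6 hold the first, 3 the second and 3 the third. A match is a run of letters and says nothing of whether a factor binds there.

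Among ligands of the neutrophil receptor Cxcr2, Cxcl1 was lower in DKO while the receptor leaned the other way. Cxcl1, a neutrophil attractant of vessel wall and myeloid cells, had 7.90, 7.91 and 7.96 in DKO, against 8.24, 8.12 and 7.99 in ApoE-KO. The DKO arrays were nearly equal and all below the ApoE-KO arrays, of which replicate 3 was the closest. The difference was -0.19 (95% interval -0.39 to 0.01; limma, unadjusted p = 0.0605 unpaired and 0.0499 with the block, adjusted p = 0.862 and 0.308). Cxcl2 and Cxcl5, which lie near it on chromosome 5, differed by -0.018 and -0.09 with overlapping groups.

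Cxcr2 itself had 5.71, 6.07 and 6.28 in DKO, against 5.47, 5.85 and 6.11 in ApoE-KO. The groups overlapped because replicate numbers differed more than genotypes did, yet each DKO array was above the ApoE-KO array of its number, by 0.25, 0.22 and 0.18. The mean of 0.21 had an unadjusted p of 0.309 unpaired and 0.0271 with the block (limma, adjusted p = 0.91 and 0.247), and it was the only member with an unadjusted p under 0.05 on the higher side. Of 8 neutrophil markers, which include S100a8 and Ly6g, 8 were lower in DKO, by amounts from -0.14 to -0.00011, with a median of -0.06 and 0 with an unadjusted p under 0.05 in either fit.

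The homeostatic ligands Cxcl12 and Cxcl14 were slightly lower in DKO. Cxcl12, which retains and recruits progenitor cells through Cxcr4 and is made by stromal and smooth muscle cells, had 9.29, 9.68 and 9.58 in DKO, against 9.62, 9.78 and 9.80 in ApoE-KO. The groups overlapped by DKO replicate 2 alone, which lay above ApoE-KO replicate 1. The difference was -0.22 (95% interval -0.50 to 0.07; limma, adjusted p = 0.862), with an unadjusted p of 0.0145 and an adjusted p of 0.199 in the block fit. Cxcr4 had overlapping groups and a difference of 0.023.

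Cxcl14, a ligand of fibroblasts and epithelia, had 7.14, 7.28 and 7.31 in DKO, against 7.39, 7.43 and 7.44 in ApoE-KO. Every DKO array was below every ApoE-KO array. The difference of -0.17 (95% interval -0.35 to 0.0012) was 0.886 times the ApoE-KO level, and its adjusted p was 0.862 unpaired and 0.286 with the block (limma).

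**Figure D3:**
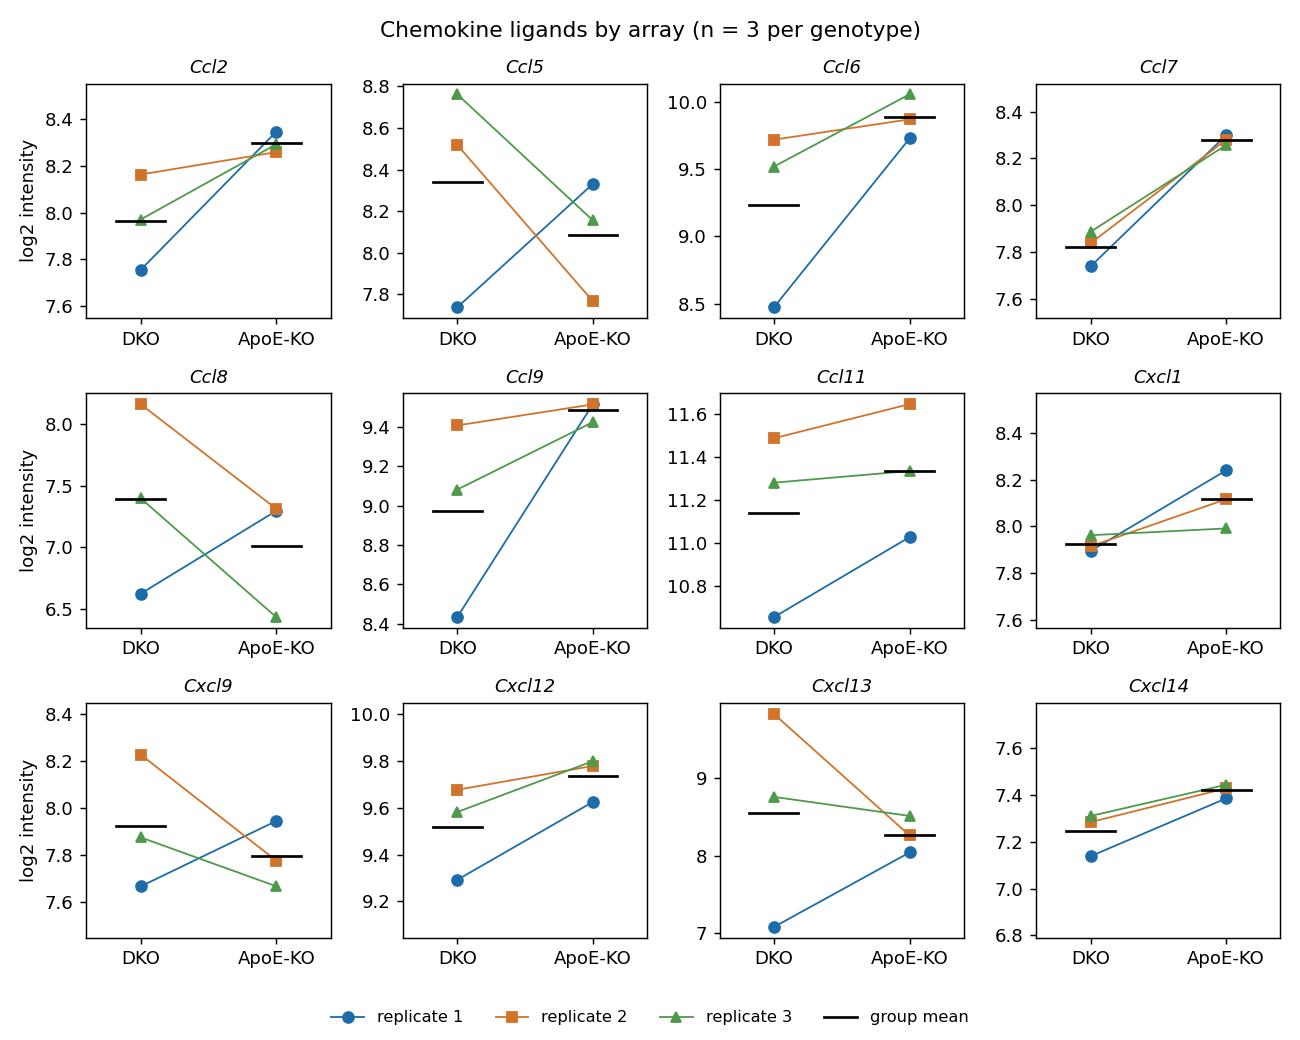
Log2 intensity of 12 chemokine ligands in each array, DKO on the left and ApoE-KO on the right of each panel, with lines joining arrays of the same replicate number and bars at the group means (n = 3 each); vertical scales differ between panels. In Ccl7 all 3 lines rise towards ApoE-KO, from 7.74 to 7.89 in DKO to 8.26 to 8.30 in ApoE-KO, with the order of the replicates reversed. In Ccl5, Ccl8, Cxcl9 and Cxcl13 the line of replicate 1 slopes against the others.

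Ligands induced by interferon showed no shared direction. Cxcl9, which draws activated T cells through Cxcr3, had 7.67, 8.23 and 7.88 in DKO, against 7.95, 7.78 and 7.67 in ApoE-KO. The groups overlapped, with DKO replicate 2 the highest. The difference was 0.13 (95% interval -0.23 to 0.48; limma, adjusted p = 0.935), and -0.025 without DKO replicate 2. Cxcl10 and Cxcl11, of the same group, differed by 0.014 and -0.08, and Cxcr3 by 0.0135, with overlapping groups in each.

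Cxcl13, the B cell attractant that organises lymphoid follicles, varied more between DKO arrays than any other member. It had 7.08, 9.82 and 8.75 in DKO, against 8.04, 8.26 and 8.51 in ApoE-KO. DKO held both the lowest and the highest array, with replicate 2 over 1 unit above all others. The SD was 1.38 in DKO and 0.23 in ApoE-KO (n = 3 each). The difference of 0.28 (95% interval -1.15 to 1.72; limma, adjusted p = 0.958) was -0.35 without DKO replicate 2 and 1.02 without DKO replicate 1. The 6 B cell markers had a mean of 6.54, 6.66 and 6.95 in DKO and 6.49, 6.42 and 6.91 in ApoE-KO, highest in replicate 3 of both groups.

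Cxcr5, the receptor of Cxcl13 on B cells, had 5.92, 5.89 and 6.39 in DKO, against 5.97, 6.04 and 5.99 in ApoE-KO. DKO replicate 3 was the highest, and the other arrays lay close together. The difference was 0.07 (95% interval -0.26 to 0.39; limma, adjusted p = 0.957), and -0.096 without that array. Cxcl16, a scavenger receptor and membrane-bound ligand of Cxcr6 on macrophages, had an SD of 0.41 in DKO and 0.062 in ApoE-KO with a difference of -0.022, and Cxcr6 spanned 6.14 to 6.31.

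Ligands of dendritic cells and lymphoid tissue overlapped between the groups. Ccl19, which guides dendritic and T cells through Ccr7, was read by 5 probe sets, of which 2 held identical values and which lay between 10.37 and 11.47 over all arrays. They gave differences from -0.19 to -0.18, and since Ccl19 has near-identical copies in the mouse genome, its signal cannot be assigned to 1 of them. Ccr7 had a difference of 0.013 with an interval of -0.18 to 0.21. Ccl17 and Ccl22, which draw T cells through Ccr4, differed by -0.17 and 0.10, and Ccl24, a second eotaxin, by 0.022. The 12 ligands not given array by array ranged from -0.18 to 0.12, with 8 lower and 4 higher in DKO and 0 with an unadjusted p under 0.05 in either fit.

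Ccr8, a receptor of type 2 helper and regulatory T cells, had the smallest p of the 12 receptors in the unpaired fit, and in the block fit Cxcr2 had a smaller one. It had 5.34, 5.39 and 5.46 in DKO, against 5.59, 5.69 and 5.56 in ApoE-KO. The groups did not overlap and every replicate number was lower. The difference was -0.22 (95% interval -0.39 to -0.04; limma, unadjusted p = 0.0224, adjusted p = 0.861; block fit, 0.0391 and 0.282), and -0.25 to -0.18 when any 1 array was left out. These levels lie below the 40th percentile of probe set means, where a signal of the gene and unspecific signal are harder to separate, as for 9 of the 12 receptors. Of the 24 ligands, 14 lay above that percentile, and Ccl8 and Cxcl14 were among those below it.

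Cx3cr1, the fractalkine receptor of monocytes and macrophages, had 8.14, 8.79 and 8.67 in DKO, against 8.46, 8.79 and 8.65 in ApoE-KO. Replicates 2 and 3 were nearly equal between genotypes and DKO replicate 1 was the lowest. The difference was -0.10 (95% interval -0.52 to 0.32; limma, adjusted p = 0.954), and 0.0045 without the replicate 1 arrays. Ccr6, a receptor of B cells and memory T cells, had 6.61, 6.69 and 6.53 in DKO, against 6.56, 6.63 and 6.48 in ApoE-KO. Each DKO array was above that of its number by about 0.05, and the difference of 0.05 (95% interval -0.13 to 0.23) had an adjusted p of 0.947 (limma). Ccr3, the eotaxin receptor, spanned 6.06 to 6.28. The 6 receptors not given array by array ranged from -0.10 to 0.023, with 3 lower and 3 higher.

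**Figure D4:**
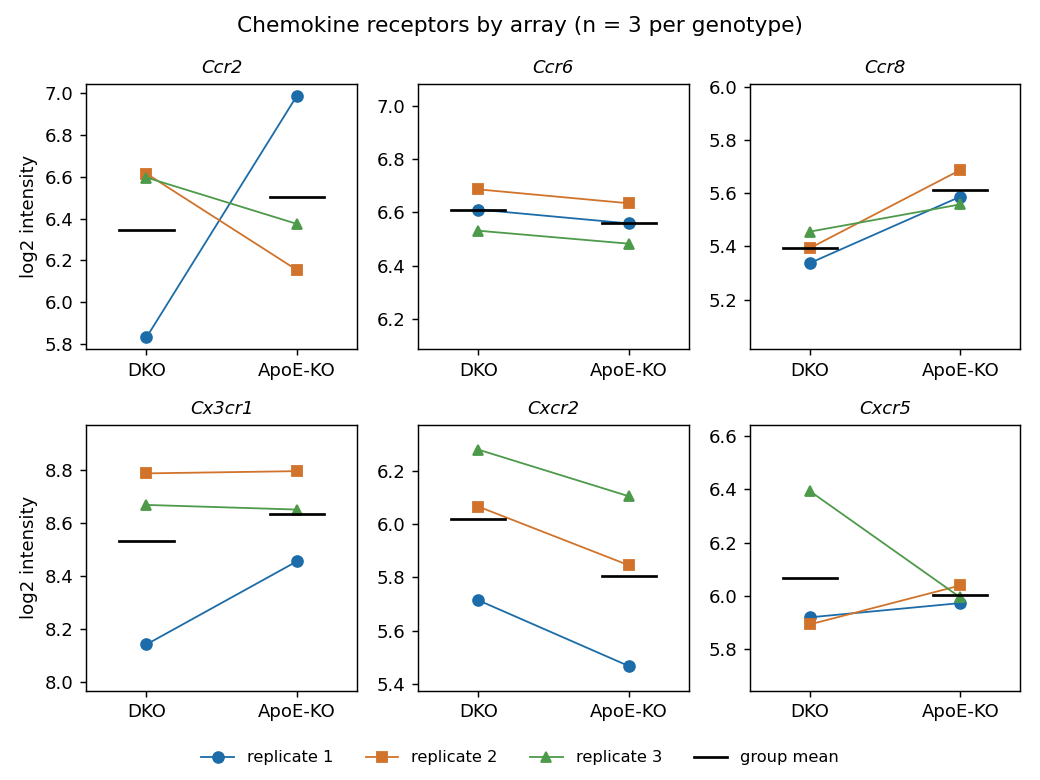
Log2 intensity of 6 chemokine receptors in each array, DKO on the left and ApoE-KO on the right of each panel, with lines joining arrays of the same replicate number and bars at the group means (n = 3 each); vertical scales differ between panels. The groups are apart in Ccr8, at 5.34 to 5.46 in DKO and 5.56 to 5.69 in ApoE-KO, and the 3 lines of Cxcr2 run downwards in parallel to ApoE-KO.

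Atypical receptors bind chemokines without signalling through G proteins, and scavenge or present ligands. Of 5 genes of this kind measured, Pitpnm3 included, 2 were lower in DKO in every replicate number, Ackr1 and Ackr2. Another 2, Pitpnm3 and Ackr4, were higher in every replicate number. All 3 replicate numbers were lower for 19.1% of all probe sets and higher for 21.2%. Ackr1, the Duffy antigen receptor that carries chemokines across venular endothelium, had 7.30, 7.57 and 7.53 in DKO, against 7.73, 8.32 and 8.10 in ApoE-KO. All 3 DKO arrays were below all 3 ApoE-KO arrays. The difference was -0.59 (95% interval -0.96 to -0.22; limma, adjusted p = 0.861), and with the block the adjusted p was 0.0545, just missing the threshold. Ackr2, which degrades inflammatory CC chemokines in lymphatic endothelium, had 8.12, 8.26 and 8.43 in DKO, against 8.35, 8.97 and 8.80 in ApoE-KO. Its groups overlapped by a single DKO array, and each replicate number was lower, with a difference of -0.44 (95% interval -0.84 to -0.04; limma, adjusted p = 0.861, with the block 0.127).

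Lymphatic endothelium was among several marker lists with a mean lower in DKO in every replicate number, while other lists were higher, as given above. White adipocytes, mast cells and sympathetic nerve were also among the lower ones. All 6 lymphatic endothelial markers were lower in DKO. Their mean was 8.13, 8.35 and 8.37 in DKO and 8.54, 8.98 and 8.67 in ApoE-KO. Their summed level ran from 48.8 to 50.2 in DKO and from 51.2 to 53.9 in ApoE-KO. One of them, Lyve1, fell by 0.61 with an adjusted p of 0.0309 in the block fit (limma; unpaired 0.861). The 7 markers of endothelium at large summed to 70.01 to 73.6 in DKO and 69.6 to 73.9 in ApoE-KO. The part of lymphatic vessels, or of the cells of any other list, in the Ackr1 and Ackr2 values was not tested. Pitpnm3, described as a receptor of CCL18 in human cells, differed by 0.25 and Ackr4, which scavenges ligands of Ccr7, by 0.17, with unadjusted p = 0.0081 and 0.0652 in the block fit (limma, adjusted p = 0.166 and 0.339). Of the 5 genes, 3 were lower and 2 higher in DKO, and 0 passed in either fit.

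**Figure D5:**
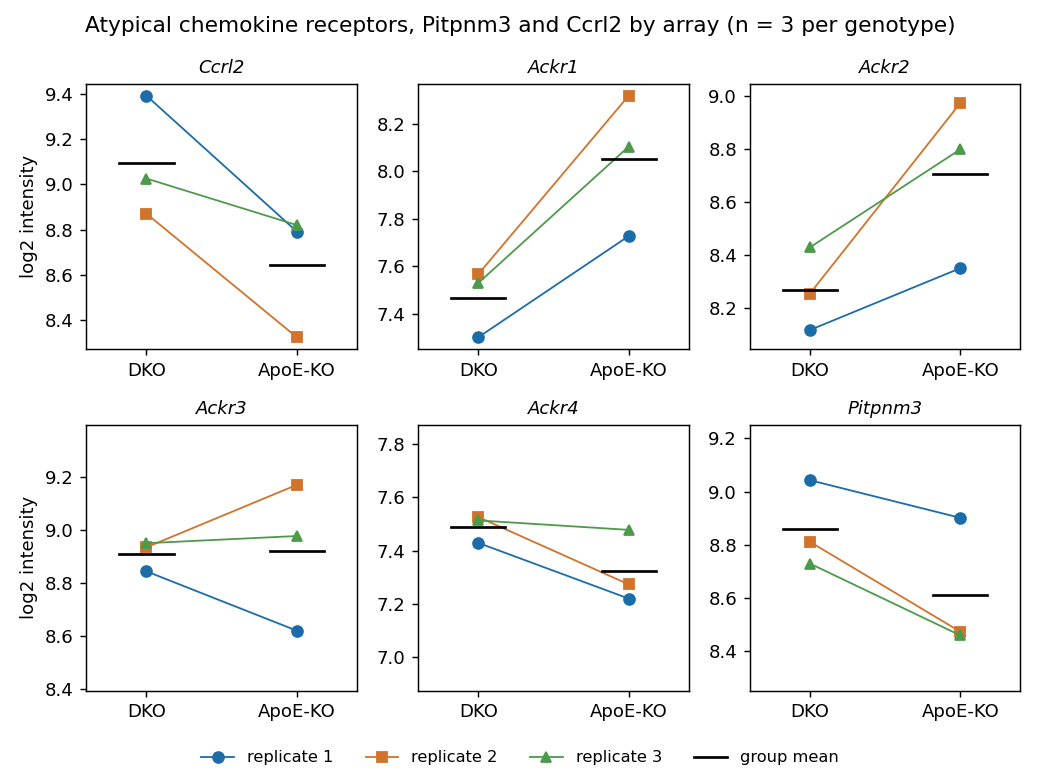
Log2 intensity of Ccrl2, Ackr1 to Ackr4 and Pitpnm3 in each array, DKO on the left and ApoE-KO on the right of each panel, with lines joining arrays of the same replicate number and bars at the group means (n = 3 each); vertical scales differ between panels. Ackr1 reaches 7.57 at most in DKO and 7.73 at least in ApoE-KO, and Ccrl2 stands the other way, at 8.87 at least in DKO and 8.82 at most in ApoE-KO.

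Of 20 other family genes with a probe set, 15 were lower and 5 higher in DKO, with a median of -0.08 and 0 passing in either fit. Ccrl2, which binds chemerin and presents it to leukocytes, had 9.39, 8.87 and 9.03 in DKO, against 8.79, 8.33 and 8.82 in ApoE-KO. The groups did not overlap, and the difference of 0.45 (95% interval 0.02 to 0.88; limma, adjusted p = 0.861, with the block 0.0995) was the largest positive one of that list. Ccl20, the ligand of Ccr6, differed by -0.22, and Ccr4, the receptor of Ccl17 and Ccl22, by -0.23, both with separate groups and an unadjusted p of 0.0432 and 0.0423 (limma, adjusted p = 0.861 for both). Ppbp, a platelet chemokine, differed by 0.34 with overlapping groups.

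Genes that carry the signal inside the cell were nearly balanced in the sign of their mean difference, but leaned higher by replicate number. Of 31 measured, 17 were higher and 14 lower in DKO, with a median of 0.0056, and 4 had an unadjusted p under 0.05 in the block fit, all on the higher side, a share near the 10.1% of all probe sets with that call. The 4 were Gnai3, an inhibitory G protein subunit (0.21), Grk3, a kinase that desensitises receptors (0.20), Jak2, a tyrosine kinase (0.16), and Gng11, a G protein gamma subunit (0.35), with adjusted p from 0.176 to 0.283 (limma). In 11 of the 31 all 3 replicate numbers were higher in DKO, and in 1 all 3 were lower, against 21.2% and 19.1% of all probe sets. The medians by replicate number were 0.026, 0.097 and 0.061. None of the 31 passed after adjustment in either fit.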

How the data were processed

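Aortic RNA was hybridised to 6 Affymetrix arrays after whole-transcript amplification. The authors deposited log2 intensities for 25254 probe sets; RMA, Partek and build mm9 stand in the submitters' processing notes. The series text mentions array batch as a factor, which no label gives. Groups follow the sample labels; the series text names the comparison group as Adora1 knockout instead. Array medians lay between 8.01 and 8.02 and correlations between arrays from 0.983 to 0.995. The number of arrays limits the precision: with 3 arrays a group, the smallest p of an exact permutation test would be 0.1.

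The platform annotation names 1 gene for 21496 probe sets. The test was limma (version 3.58.1, R 4.3.3) across every probe set (eBayes with an intensity trend, no filter, two-sided, Benjamini-Hochberg over all, threshold 0.05). Same-numbered arrays deviated together from their group means (correlations 0.60, 0.50 and 0.64), so the numbers were treated as pairs from the data, not from a label, and a fit with the number as a block stands beside the unpaired one.

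Values in every array are given for members with an unadjusted p under 0.05 in either fit, the 4 ligands and 3 receptors per direction with the largest difference, and those with separate groups or 1 array over 1 unit from the others. From the related lists up to 4 genes are named by smallest block p. Members and lists were chosen with earlier results of these data known.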

Additional observations from a re-analysis of the deposited data

How the results depend on the processing

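Probe sets passing over all 25254 numbered 0 unpaired, 44 with the replicate block, 1 with an unmoderated linear model and 0 to 8 with 1 array left out, the 8 without DKO replicate 3. With the block and both arrays of a number left out they were 415 (replicate 1), 0 (replicate 2) and 48 (replicate 3). No member passed in these fits except Ccl3, Ccl5 and Ccl8 without replicate 1 in the block fit, which leaves out the number in which they were lower. The ligand median ran from -0.19 to 0.0024 and the ligands lower in DKO from 12 to 23 of 24 with 1 array left out, and from -0.16 to 0.011 and 11 to 22 with both arrays of a number left out. The receptor median ran from -0.053 to 0.067 and the receptors lower from 3 to 9 of 12, and from -0.086 to 0.045 and 3 to 9 without both. Above the 40th percentile of the mean, 9 of 14 ligands and 1 of 3 receptors were lower. Of 18 genes given array by array, 11 kept their sign under every alternative run, and 7 did not when arrays were left out. Their ranges with 1 array left out were -0.0028 to 0.77 for Ccl8, -0.37 to 0.048 for Ccl11, -0.025 to 0.26 for Cxcl9, -0.35 to 1.02 for Cxcl13, -0.33 to 0.10 for Ccr2, -0.23 to 0.094 for Cx3cr1 and -0.096 to 0.155 for Cxcr5. With both arrays of a number left out they included -0.035 for Cxcl9, -0.36 for Cxcl13, 0.34 for Ccr2, 0.0045 for Cx3cr1 and -0.10 for Cxcr5. The cause was not tested. No call or sign of these genes changed with centring on the median, a second quantile normalization, eBayes run robustly or without its trend, the unmoderated model or the mean over probe sets. Unadjusted p-values with the block did depend on the moderation. In an unmoderated linear model with the block, 2 of 24 ligands had an unadjusted p under 0.05, against 8 in the limma block fit. For receptors it was 2 of 12 in both.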

Other observations

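Genes that induce chemokines were spread around 0. Of 22 measured cytokine, receptor and NF-kB genes, 10 were higher and 12 lower in DKO, with a median of -0.025 and 0 passing in either fit. Il6, a cytokine released by activated myeloid and vessel wall cells, had 3.37, 3.90 and 3.43 in DKO, against 6.36, 4.02 and 3.41 in ApoE-KO, so that 1 ApoE-KO array stood over 2 units above the rest. That array, ApoE-KO replicate 1, was the highest of the 6 for 10 of the 36 chemokine and receptor genes, against 20.5% of all probe sets. Ccl2, Ccl7, Cxcl1 and Ccr2 were among them. In Ccl7 it read 8.30, close to the 8.28 and 8.26 of the other ApoE-KO arrays, and in Ccl2 8.35, against 8.26 and 8.29. Whether the Il6 value has a part in the chemokine values was not tested. Tlr2, a receptor of microbial lipoproteins, differed by 0.18 (limma with the replicate block, unadjusted p = 0.0404, adjusted p = 0.285), and Tnfaip3 and Il1b by 0.12 and 0.16.

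Cxcl15, a chemokine of lung epithelium named here after its values were seen, had 5.11, 5.03 and 8.95 in DKO, against 5.06, 5.17 and 10.13 in ApoE-KO. Both replicate 3 arrays thus stood far above the others. Lung epithelium markers had the same arrays high, with a mean over 5 genes of 6.75, 6.73 and 10.39 in DKO and 6.86, 6.81 and 11.04 in ApoE-KO.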
